A study of Mus musculus with 16 samples.

Results

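The genes described here encode the thioredoxin system, the quinone reductase NQO1 and enzymes that supply NADPH. They were 10 genes chosen by name, with earlier results of these data known: Txnrd1, Txn1, Srxn1, Prdx1, Nqo1, Me1, G6pdx, Pgd, Taldo1 and Tkt. All 10 were among the 12732 genes tested, through 13 of the 39429 probes on the array (3 for Me1, 2 for Prdx1 and 1 for each other gene). RNA came from mouse macrophages derived from stem cells, with 4 biological replicates, lettered a to d, in each of 4 groups. In 2 groups the cells had been given heme-albumin for 8 h, at a dose of either 200 µM or 50 µM. Another group had been given 10 ng/mL of LPS (lipopolysaccharide, a bacterial wall component that activates Toll-like receptor 4) for the same time, and the last was untreated control cells at 0 h. Heme-albumin is the iron-containing group of hemoglobin bound to the main carrier protein of plasma. Each of the 16 arrays compared a red-labelled sample with green-labelled RNA of untreated cells, and on control arrays both colours were untreated RNA.

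No group was untreated at 8 h or given albumin without heme, so time in culture and albumin cannot be told apart from the treatments. All arrays of a group also sat at the same position of their slide. The arrays were scanned over 2 days, with a and b of every group first. Between 49.1% and 59.4% of probes were well above background in red on each array, and no spot was saturated. Arrays of LPS-treated cells were brighter in both colours, with median red signals over the tested genes of 1570 to 1981, against 739 to 837 on control arrays, and median green signals of 1662 to 2078, against 731 to 835. Of 10 macrophage markers, 9 had a probe, and 9 at 200 µM, 9 at 50 µM, 8 after LPS and 8 in controls were well above background on every array of the group; Csf1r, Adgre1, Lyz2 and Spi1 were among them in all groups. Of the 9, 1 rose and 3 fell at 200 µM, with Fcgr1 (-1.58) and Mertk (-1.04) past 2-fold, and 5 rose and 4 fell after LPS. Of 18 tested markers of 7 other cell types, 1 rose at 200 µM, the neutrophil elastase gene Elane (0.38, adjusted p = 0.0019), while 9 rose and 2 fell after LPS. Both sets of marker counts stand beside all genes tested, of which 22.9% passed an adjusted p under 0.05 at 200 µM and 10.9% rose. After LPS 34.5% of all genes rose and 44.4% fell. The dendritic cell marker Ccr7 (6.44), the fibroblast marker Dcn (5.01), the neutrophil markers Camp (2.19) and S100a8 (1.56) and the endothelial markers Cdh5 (2.10) and Pecam1 (1.59) were over 2-fold higher after LPS. That level was reached by 30.7% of all genes in either direction and 14% as higher. Ccr7 and Dcn were well above background on every array only after LPS. They were therefore tested only because of the group where they were high. The 2 that fell were the endothelial marker Vwf (-1.29), past 2-fold, and the neutrophil marker Elane (-0.38). All these markers were named after their values were seen. Summed red signals on LPS arrays, against control arrays, were 15991 to 30429, against 1963 to 11016, for the 6 dendritic cell markers, 387 to 486, against 25.6 to 45.5, for the 6 fibroblast markers, and 6344 to 9149, against 2176 to 3874, for the 6 neutrophil markers with a probe. For the 5 endothelial markers the sums overlapped, with 4232 to 6771 on LPS arrays, against 3133 to 4770 on control arrays. Well above background on every array were 3 dendritic cell markers after LPS, against 1 in controls, 2 fibroblast markers, against 1, and 3 neutrophil markers, against 3. The part of these markers in the LPS results was not tested. In bulk RNA, fewer cells of a type and less RNA per cell cannot be told apart.

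Thioredoxin is a small protein that reduces disulfides in other proteins, and thioredoxin reductase restores it with electrons from NADPH. Peroxiredoxins destroy hydrogen peroxide and are recharged by thioredoxin, while sulfiredoxin rescues peroxiredoxin that has been overoxidised. The NADPH comes mainly from malic enzyme and the oxidative pentose phosphate pathway, and several of these genes are known targets of the transcription factor NRF2, which binds antioxidant response elements. Such elements share the core TGACNNNGC, and TGANTCA is the site of the related AP-1 factors.

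Promoter windows from RefSeq (GRCm38.p6, 250 bases before to 50 bases after each annotated start) were found for 10 of 10 genes, 14 windows in all. Both strands were searched for TGACNNNGC and TGANTCA, and the 2 motifs can overlap. TGACNNNGC was found in a window of 6 of the 10 genes (Txnrd1, Srxn1, Prdx1, Me1, G6pdx and Pgd), and 14% of the 27025 genes in the table, or 12.4% of its 32851 windows, hold it. TGANTCA was found for Srxn1, Prdx1 and Me1, and 8.97% of genes hold it. Windows of Txn1, Nqo1, Taldo1 and Tkt had neither run of letters. The stretches of 260 bases below belong to the 4 genes with the largest change at 200 µM; each ends shortly after the start, and capitals mark matches to either motif.
Prdx1, chr4:116685349-116685608, plus strand: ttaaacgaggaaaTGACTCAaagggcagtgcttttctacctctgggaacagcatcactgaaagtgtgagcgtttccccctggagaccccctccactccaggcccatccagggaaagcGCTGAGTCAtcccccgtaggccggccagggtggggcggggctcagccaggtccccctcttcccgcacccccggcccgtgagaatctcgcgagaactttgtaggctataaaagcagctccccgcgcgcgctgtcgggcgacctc
Txnrd1, chr10:82858956-82859215, plus strand: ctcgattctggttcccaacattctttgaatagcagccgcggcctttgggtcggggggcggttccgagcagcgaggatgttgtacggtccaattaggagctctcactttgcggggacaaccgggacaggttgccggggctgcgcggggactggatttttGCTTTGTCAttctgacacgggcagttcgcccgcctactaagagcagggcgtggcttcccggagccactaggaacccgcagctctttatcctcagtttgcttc
Srxn1, chr2:152105274-152105533, plus strand: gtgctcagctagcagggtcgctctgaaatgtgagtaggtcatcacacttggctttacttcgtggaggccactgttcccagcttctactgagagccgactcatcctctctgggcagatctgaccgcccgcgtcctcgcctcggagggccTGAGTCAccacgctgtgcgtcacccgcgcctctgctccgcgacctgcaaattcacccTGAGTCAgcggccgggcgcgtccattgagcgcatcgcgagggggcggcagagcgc
Me1, chr9:86695905-86696164, minus strand: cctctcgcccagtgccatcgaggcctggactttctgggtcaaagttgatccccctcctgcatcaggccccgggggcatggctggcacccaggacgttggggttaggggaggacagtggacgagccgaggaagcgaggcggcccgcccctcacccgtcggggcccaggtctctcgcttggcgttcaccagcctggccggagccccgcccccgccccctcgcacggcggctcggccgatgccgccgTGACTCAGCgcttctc

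In Prdx1, the match GCTGAGTCA begins at position -133 relative to the start and holds both motifs, overlapping. The 9 capitals of Me1, TGACTCAGC, begin at position -6 and also hold both motifs. Txnrd1 has its match, GCTTTGTCA, in 1 of its 3 windows. In Srxn1 the 2 capital stretches are TGANTCA matches, and its TGACNNNGC match lies 28 bases after the start, beyond the printed stretch. The Pgd match lies 3 bases after the annotated start, in 1 of its 2 windows. A match is a description of letters, not evidence that a factor binds.

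After heme-albumin at 200 µM, all 10 genes had higher ratios than in untreated controls. By limma, 10 of the 10 rose at a Benjamini-Hochberg adjusted p under 0.05, a level that 22.9% of all genes tested passed in either direction and 10.9% as higher. A change of at least 2-fold on top of that was reached by 7 genes, all higher (Txnrd1, Srxn1, Prdx1, Nqo1, Me1, G6pdx and Pgd), against 3.03% of all genes in either direction and 2.05% as higher. Of the 8 genes with a value on all arrays of both groups, 8 had 4 treated arrays that did not overlap the 4 control arrays, as was so for 35.6% of such genes overall. Over the 10 genes the median difference was 1.28 on the log2 scale, against -0.02 over all genes tested. On red signal alone 8 of the 10 passed the adjusted p at 200 µM, without Txn1 and Taldo1. At 50 µM, 7 of the 10 rose and 2 of those, Txnrd1 and Me1, were at least 2-fold higher, against 3.53% of all genes past the adjusted p (2.07% as higher) and 0.369% past both limits (0.291% as higher); 8 of 8 did not overlap the controls, against 19% of all genes, and the median difference was 0.67, against -0.01 over all genes. The number past the adjusted p at 50 µM was 2 on red signal alone (Txnrd1 and G6pdx) and 10 in a fit that blocked on scan day. After LPS, 6 rose and 3 fell, while 78.9% of all genes passed the adjusted p (34.5% as higher and 44.4% as lower); 6 of 8 did not overlap the controls, against 72.1% of all genes. Txnrd1, Txn1 and Prdx1 were at least 2-fold higher after LPS, a level that 30.7% of all genes reached in either direction and 14% as higher. The LPS median over the 10 genes was 0.33, against -0.09 over all genes. All 3 comparisons share the control arrays.

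**Figure D1:**
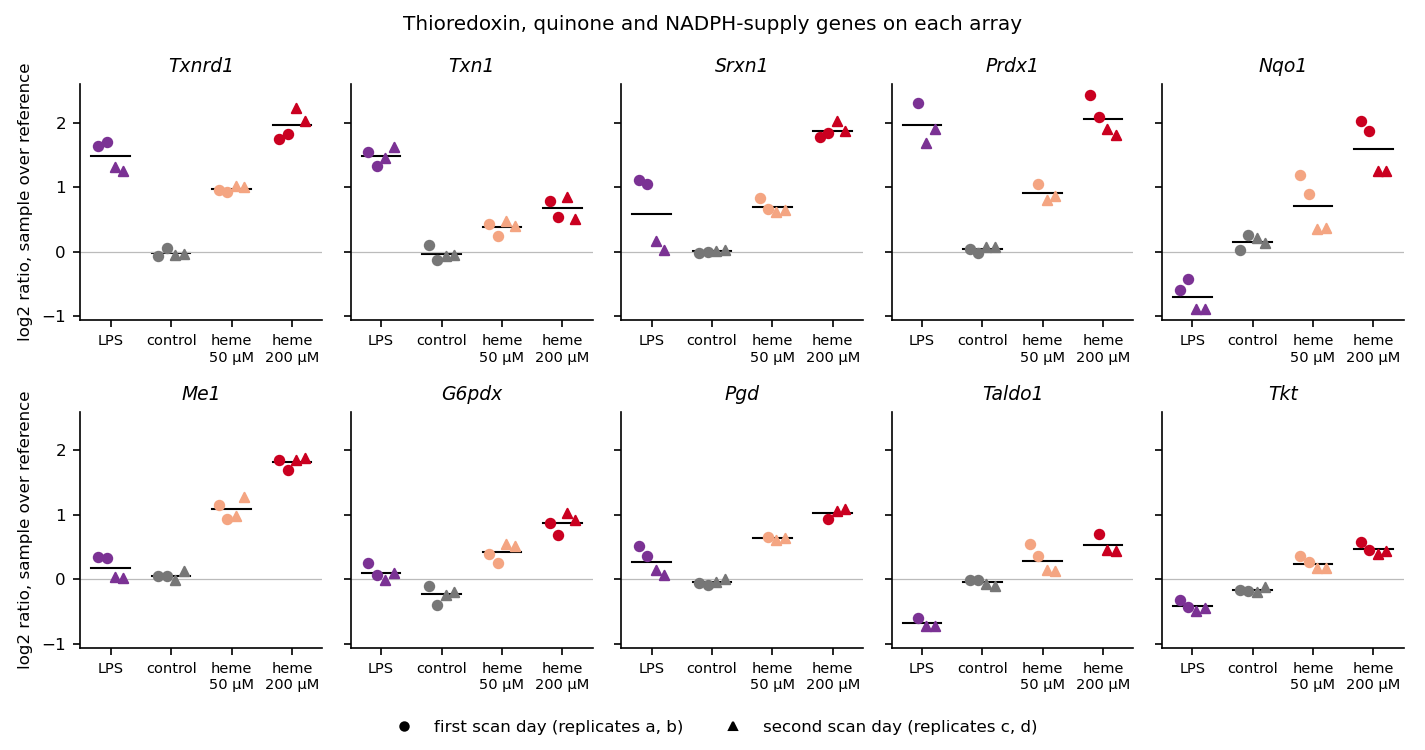
Log2 ratio of sample (red) over untreated reference (green) for each of the 10 genes on every array; columns are LPS, untreated control, heme-albumin at 50 µM and at 200 µM, circles are the first scan day, triangles the second, and bars are group means. At 200 µM all plotted arrays lie above all control arrays in every panel, whereas LPS arrays lie above them for Txnrd1, Txn1, Prdx1, G6pdx and Pgd, below them for Nqo1, Taldo1 and Tkt, and overlap them for Srxn1 and Me1.

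Txnrd1, the cytosolic thioredoxin reductase, had log2 ratios of 1.75, 1.82, 2.23 and 2.02 at 200 µM (replicates a to d), against -0.07, 0.06, -0.05 and -0.03 in controls. Every treated array lay above every control array. The difference of 1.98 (SE 0.11), or 3.95-fold, had an adjusted p of 1.2e-08. At 50 µM the 4 arrays were close together, at 0.96, 0.92, 1.02 and 1.004, and the difference from controls of 1.001 (SE 0.11) sat on the 2-fold limit (adjusted p = 9.9e-05), above which it stayed in 4 of 12 fits that left out an array or a replicate letter. Txnrd1 thus had values at 50 µM between those of the other dose and the controls, with no overlap. LPS arrays read 1.64 and 1.70 on the first scan day and 1.32 and 1.25 on the second, all above the controls, with a difference of 1.51 (SE 0.11, adjusted p = 7.2e-09).

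Txn1, thioredoxin itself, changed least of the thioredoxin genes after heme-albumin. Its ratios were 0.79, 0.54, 0.85 and 0.51 at 200 µM, against 0.11, -0.12, -0.06 and -0.05 in controls. These groups did not overlap, and the difference was 0.70 (SE 0.09, adjusted p = 4.1e-05). At 50 µM it read 0.43, 0.25, 0.47 and 0.39, a difference of 0.42 (SE 0.09, adjusted p = 0.015) from controls that fell short of 2-fold. LPS gave 1.55, 1.33, 1.46 and 1.62, above all arrays of the other groups, and the difference from controls was 1.52 (SE 0.09, adjusted p = 5.5e-10), or 2.87-fold. On red signal alone the Txn1 difference at 200 µM was 0.44 with an adjusted p of 0.072.

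Prdx1, a peroxiredoxin of the cytosol, reached 2.43, 2.08, 1.90 and 1.81 at 200 µM, against 0.04, -0.01, 0.07 and 0.08 in controls. The 4.02-fold difference, 2.01 on the log2 scale (SE 0.14, adjusted p = 6.2e-07), was the largest of the 10 genes at that dose. The spots of replicate a at 50 µM and after LPS were outliers and were left out. The remaining arrays at 50 µM read 1.05, 0.80 and 0.87, a difference of 0.86 (SE 0.15, adjusted p = 0.0068) from controls. After LPS they read 2.30, 1.69 and 1.90, overlapping the 200 µM arrays, and the difference from controls was 1.92 (SE 0.15, adjusted p = 9.6e-08). The reference signal of Prdx1 in green was 20173 to 31898 at 200 µM, against 28782 to 47105 on control arrays, and on red alone the difference was 1.13 (adjusted p = 0.0015); the part of the green channel in the ratio was not tested. A second probe for Prdx1 gave differences of 1.91 at 200 µM, 0.91 at 50 µM and 1.46 after LPS.

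Srxn1, sulfiredoxin, separated the doses widely. It had ratios of 1.77, 1.84, 2.02 and 1.87 at 200 µM, against -0.02, -0.00, 0.02 and 0.03 in controls. With no overlap, the difference was 1.87 (SE 0.19, adjusted p = 6.6e-06). At 50 µM the arrays read 0.84, 0.67, 0.62 and 0.65, also above all controls, yet the difference of 0.69 (SE 0.19) had an adjusted p of 0.077. The SE shares the spread of the LPS arrays, and within single scan days the adjusted p at 50 µM was 0.006 on the first and 0.014 on the second. LPS arrays read 1.11 and 1.05 on the first scan day but 0.17 and 0.03 on the second, where they overlapped the controls. Their pooled difference was 0.58 (SE 0.19, adjusted p = 0.013), and 0.40 (adjusted p = 0.11) without replicate a or 0.42 (adjusted p = 0.11) without replicate b of both groups.

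Nqo1 reduces quinones directly to hydroquinones, bypassing the reactive semiquinone. Its ratios at 200 µM were 2.02, 1.88, 1.26 and 1.25, against 0.03, 0.26, 0.21 and 0.14 in controls. The groups did not overlap, and the difference was 1.44 (SE 0.21, adjusted p = 1.4e-04), or 2.72-fold. At 50 µM the values of 1.19, 0.90, 0.36 and 0.37 lay above all controls, while the difference of 0.55 (SE 0.21) did not pass the test (adjusted p = 0.23). A fit that blocked on scan day gave an adjusted p of 0.031. Nqo1 was highest on the first scan day at both doses. After LPS it read -0.59, -0.43, -0.88 and -0.89, below every control array, and fell by 0.85 (SE 0.21, adjusted p = 0.0016), which is under 2-fold.

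Me1, the cytosolic malic enzyme that makes NADPH while turning malate into pyruvate, read 1.86, 1.70, 1.85 and 1.88 at 200 µM, against 0.06, 0.05, -0.02 and 0.13 in controls. The difference was 1.77 (SE 0.09, adjusted p = 6.4e-09), with no overlap. At 50 µM the ratios were 1.15, 0.94, 0.98 and 1.28, and the difference of 1.03 (SE 0.09, adjusted p = 1.6e-05) passed 2-fold. On red signal alone that difference was 0.75 (adjusted p = 0.1). Replicate d at 50 µM was dim in both colours, with a red signal of 2345 where the other 3 arrays had 4439 to 5586. LPS arrays read 0.36, 0.33, 0.03 and 0.02 and overlapped the controls, with a difference of 0.13 (95% interval -0.07 to 0.32, adjusted p = 0.21). The 3 probes of Me1 gave close values after heme-albumin, with 1.77, 1.71 and 1.75 at 200 µM, but not after LPS, where the third read 0.74 (adjusted p = 3.2e-05) and the others 0.13 and 0.16. With the mean over the probes the LPS difference was 0.34 (adjusted p = 0.0048).

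G6pdx and Pgd encode the NADPH-producing dehydrogenases of the pentose phosphate pathway. G6pdx read 0.88, 0.69, 1.04 and 0.92 at 200 µM, against -0.11, -0.40, -0.24 and -0.19 in controls, which lay below the reference on every array. The G6pdx groups did not overlap, and the difference was 1.11 (SE 0.09, adjusted p = 6.2e-07). At 50 µM G6pdx read 0.40, 0.25, 0.55 and 0.52, a difference of 0.66 (SE 0.09, adjusted p = 6.3e-04) from controls. After LPS its values of 0.26, 0.07, -0.01 and 0.09 were above all controls by a smaller step of 0.34 (SE 0.09, adjusted p = 0.0035). Pgd had no usable spot on replicate a at either dose. Its other arrays read 0.93, 1.07 and 1.10 at 200 µM, against -0.05, -0.08, -0.04 and 0.00 in controls, a difference of 1.08 (SE 0.09, adjusted p = 2.8e-06). On red signal alone the Pgd difference at 200 µM passed the adjusted p but was under 2-fold. At 50 µM Pgd read 0.66, 0.62 and 0.64, with a difference of 0.68 (SE 0.09, adjusted p = 8.7e-04). The Pgd values after LPS were 0.52, 0.36, 0.15 and 0.08, all above the controls, with a difference of 0.32 (SE 0.08, adjusted p = 0.0035).

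Taldo1 and Tkt, transaldolase and transketolase, run the branch of the pathway that shuffles sugars and makes no NADPH. They had the smallest differences of the 10 genes at both doses. Tkt read 0.59, 0.45, 0.39 and 0.45 at 200 µM, against -0.16, -0.18, -0.19 and -0.11 in controls, a difference of 0.63 (SE 0.06, adjusted p = 1.7e-06) without overlap. At 50 µM Tkt read 0.36, 0.27, 0.17 and 0.17, a difference of 0.41 (SE 0.06, adjusted p = 7.3e-04). After LPS it read -0.32, -0.43, -0.49 and -0.44, below all controls, and fell by 0.26 (SE 0.06, adjusted p = 7.5e-04). Taldo1 lost the spots of replicate a at 200 µM and after LPS. Its remaining arrays read 0.71, 0.46 and 0.43 at 200 µM, against -0.00, -0.02, -0.07 and -0.10 in controls, a difference of 0.58 (SE 0.10, adjusted p = 0.0011), or 0.28 (adjusted p = 0.2) on red signal alone. At 50 µM Taldo1 read 0.55, 0.36, 0.14 and 0.13, above all controls, with a difference of 0.34 (SE 0.09) and an adjusted p of 0.077, or 0.031 with replicate as a block. LPS brought Taldo1 to -0.59, -0.72 and -0.72, a fall by 0.63 (SE 0.10, adjusted p = 7.4e-05).

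The falls of Taldo1 and Tkt after LPS did not pass the test without the reference channel. Green reference signals of Taldo1 were 179480 to 243914 on LPS arrays, against 54391 to 74423 on control arrays, although both hold untreated reference RNA. On red signal alone, scaled to each array's 75th percentile, the LPS difference of Taldo1 was -0.15 (adjusted p = 0.3) and that of Tkt -0.06 (adjusted p = 0.43). Nqo1 on red alone still fell, by 0.93 (adjusted p = 4e-04). What moved the green signals was not tested.

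**Figure D2:**
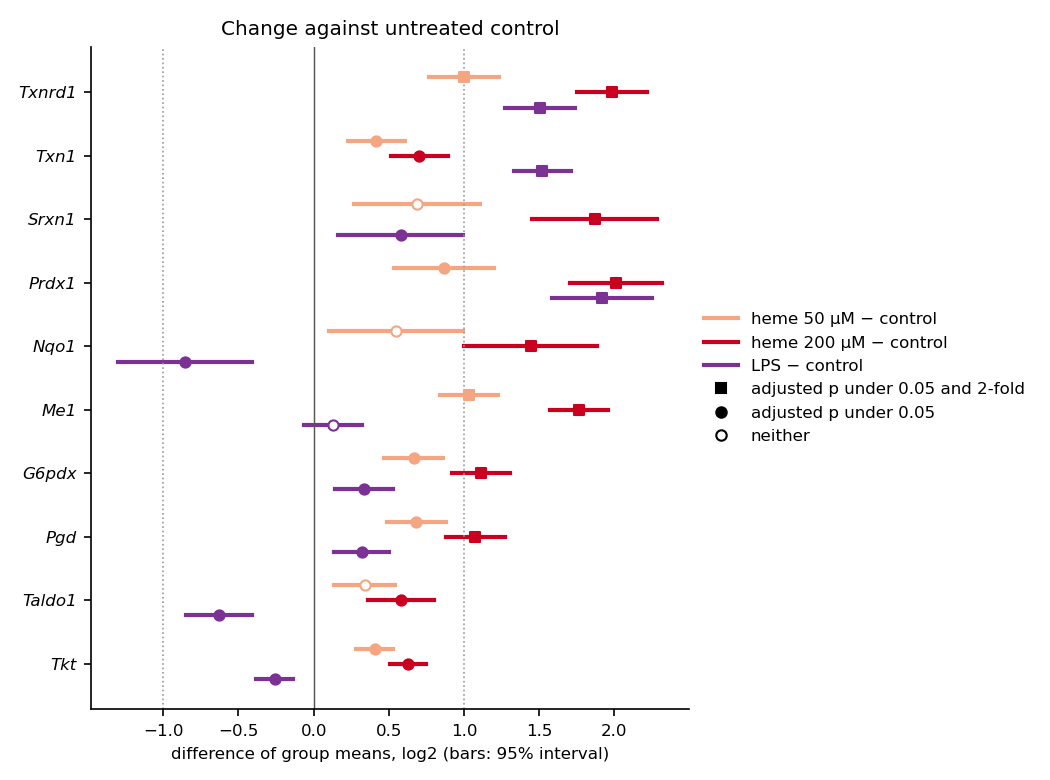
Difference of group means from untreated control on the log2 scale for each gene after heme-albumin at 50 µM (orange), heme-albumin at 200 µM (red) and LPS (purple), with 95% intervals; squares are genes past the adjusted p and 2-fold, filled circles past the adjusted p, open circles neither, and dotted lines mark 2-fold. The red points run from 0.58 for Taldo1 to 2.01 for Prdx1, while the purple points lie on both sides of 0.

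Between the doses, 8 of the 10 genes were higher at 200 µM than at 50 µM at an adjusted p under 0.05, against 7.61% of all genes in either direction and 4.21% as higher. This count was less firm than its size: 3 of the 10 passed on red signal alone. It was 4 when either replicate c or replicate d was left out of all groups. Srxn1 and Prdx1 were higher by over 2-fold, against 0.833% of all genes in either direction and 0.636% as higher. On red signal alone neither reached 2-fold, and Me1 was the only gene called. The Srxn1 difference was 1.18 (SE 0.19, adjusted p = 0.0014) and that of Prdx1 1.14 (SE 0.15, adjusted p = 4.8e-04). Txnrd1 (0.98, adjusted p = 5.7e-05), Nqo1 (0.90, adjusted p = 0.016) and Me1 (0.73, adjusted p = 1.4e-04) followed. G6pdx differed by 0.45 (adjusted p = 0.0067), Pgd by 0.39 (adjusted p = 0.025) and Tkt by 0.22 (adjusted p = 0.027). With replicate as a block, Pgd had an adjusted p of 0.092. Txn1 differed by 0.29 (95% interval 0.10 to 0.47, adjusted p = 0.065, or 0.024 with the block) and Taldo1 by 0.24 (95% interval 0.02 to 0.46, adjusted p = 0.2).

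Heme-albumin at 200 µM was then set against LPS. In this comparison 8 genes were higher with heme-albumin and 1 was lower at an adjusted p under 0.05, where 79.3% of all genes passed (44.7% as higher and 34.6% as lower). Higher by at least 2-fold were 4 genes (Srxn1, Nqo1, Me1 and Taldo1), against 30.3% of all genes in either direction and 16.8% as higher. Nqo1, which rose with heme-albumin and fell with LPS, had the widest gap of the 10, 2.30 (SE 0.21, adjusted p = 9.2e-08), or 4.91-fold. Me1 was higher by 1.64 (SE 0.09, adjusted p = 3.5e-10), Srxn1 by 1.29 (SE 0.19, adjusted p = 2.3e-05) and Taldo1 by 1.21 (SE 0.11, adjusted p = 2.9e-07). On red signal alone, Nqo1 and Me1 were past 2-fold, while Srxn1 gave 0.84 (adjusted p = 0.0048) and Taldo1 0.43 (adjusted p = 0.011). Srxn1 gave 0.73 (adjusted p = 1.2e-04), under 2-fold, on the first scan day alone and 1.85 (adjusted p = 2.6e-06) on the second. The third probe of Me1 gave 1.01 (adjusted p = 1.3e-06). Tkt was higher by 0.89, G6pdx by 0.78, Pgd by 0.76 and Txnrd1 by 0.48, each with an adjusted p of at most 0.001. On red signal alone Txnrd1 gave 0.22 (adjusted p = 0.12). By scan day Txnrd1 gave 0.11 (adjusted p = 0.16) on the first and 0.84 (adjusted p = 9.6e-05) on the second. Txn1 alone was lower with heme-albumin, by -0.82 (SE 0.09, adjusted p = 6.6e-07). Prdx1 gave a difference of 0.09 (95% interval -0.24 to 0.42, adjusted p = 0.59), but its second probe gave 0.45 (adjusted p = 0.0078). These differences stand against a median of 0.11 over all genes in this comparison, which centring each array moved to 0.03.

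**Figure D3:**
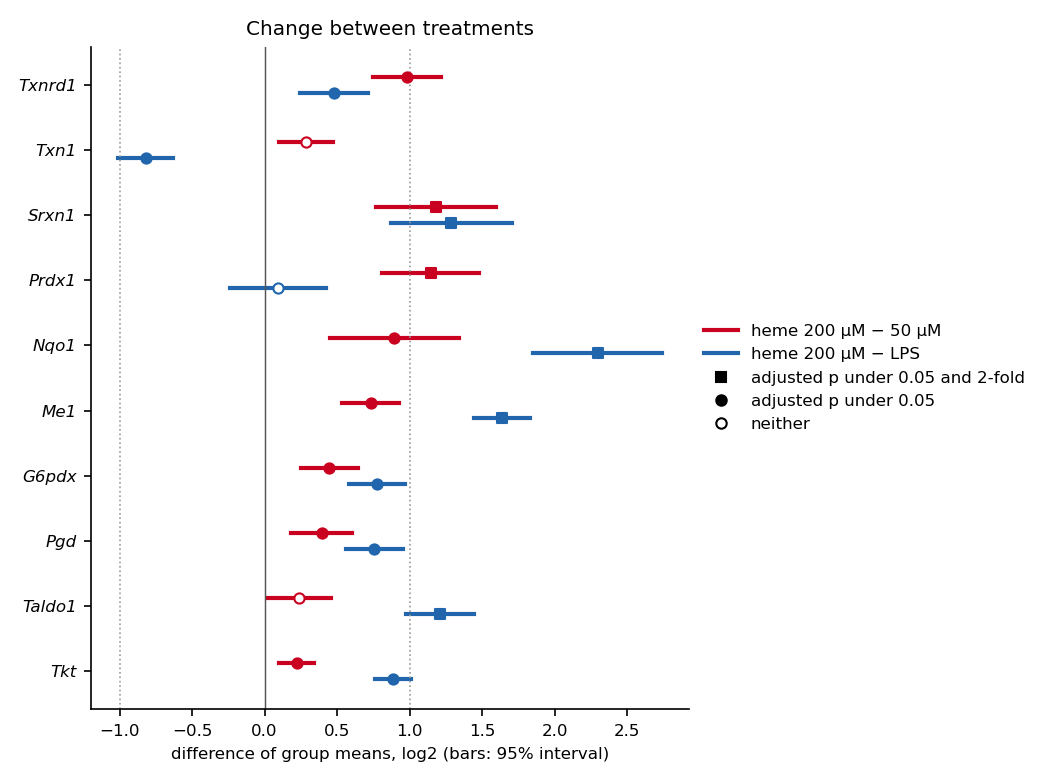
Difference of group means on the log2 scale between heme-albumin at 200 µM and at 50 µM (red) and between heme-albumin at 200 µM and LPS (blue) for each gene, with 95% intervals and symbols for 2-fold and adjusted p as defined in the legend. Red points lie between 0.22 for Tkt and 1.18 for Srxn1, and blue points between -0.82 for Txn1 and 2.30 for Nqo1.

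Set against LPS, heme-albumin at 50 µM was higher for 6 genes and lower for 3 at an adjusted p under 0.05 (79.2% of all genes passed, 44.8% as higher and 34.5% as lower). Nqo1 was higher by over 2-fold (1.40, SE 0.21, adjusted p = 1.9e-05) and Txn1 (-1.10, SE 0.09, adjusted p = 2.2e-08) and Prdx1 (-1.05, SE 0.16, adjusted p = 5.8e-05) were lower by over 2-fold, against 30.7% of all genes in either direction, 16.7% as higher and 13.9% as lower. The second probe of Prdx1 gave -0.55 (adjusted p = 0.0021), under 2-fold. Txnrd1 was lower by -0.50 (adjusted p = 6.4e-04). The other 5 that were higher were Taldo1 (0.97), Me1 (0.91), Tkt (0.66), Pgd (0.36) and G6pdx (0.33). On red signal alone Taldo1 (0.28, adjusted p = 0.064), Pgd (0.19, adjusted p = 0.18) and G6pdx (0.23, adjusted p = 0.08) did not pass. The third probe of Me1 gave 0.25 (adjusted p = 0.059). Srxn1 did not pass, with a difference of 0.11 (adjusted p = 0.62). The Srxn1 difference was -0.32 on the first scan day alone (adjusted p = 0.0057) and 0.54 on the second (adjusted p = 6.6e-04).

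The 2 scan days gave unlike LPS responses for 4 of the 10 genes, tested as a treatment by scan day term, where 33.7% of all genes passed. Srxn1 differed most: LPS minus control was 0.07 on the second day and 1.09 on the first, a change of -1.02 (SE 0.10, adjusted p = 6.9e-05). For Txnrd1 it was 1.33 on the second day and 1.68 on the first (adjusted p of the difference = 0.021), and for Pgd 0.13 and 0.51 (adjusted p = 0.01). For Prdx1 it was 1.72 and 2.29, but its first-day LPS value is replicate b alone, because the spot of replicate a was left out. The place of Prdx1 among the 4 genes thus rests on a single LPS array on that day. After heme-albumin, 0 of the 10 passed this test by limma at either dose (3 at 200 µM and 2 at 50 µM had an unadjusted p under 0.05), and 0.00785% of all genes passed it at 200 µM and 0% at 50 µM. Nqo1 came nearest, with heme-albumin minus control of 1.08 on the second day and 1.81 on the first at 200 µM (adjusted p = 0.12, unadjusted p = 5.2e-04). In the sample titles each replicate letter carries its own tag, shared by all groups, so the 2 scan days hold differently tagged material. The labels do not say what the tags stand for, and scan day and tag cannot be told apart.

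**Figure D4:**
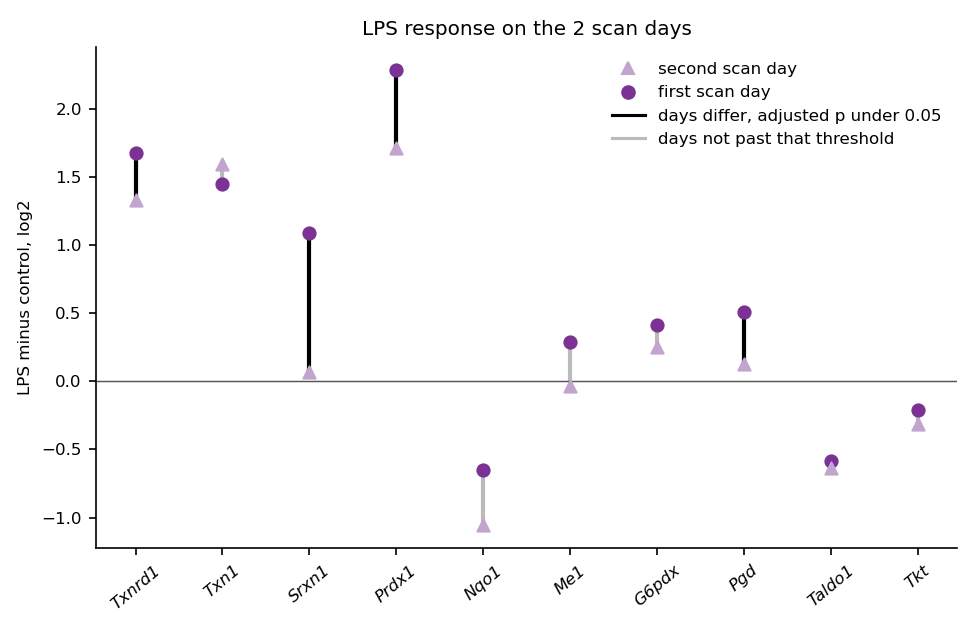
LPS minus control on the log2 scale for each gene on the second scan day (triangles) and the first (circles). Triangles are replicates c and d and circles a and b, but with LPS replicate b alone for Prdx1 and Taldo1. Black lines join days that differ at an adjusted p under 0.05. The longest line is that of Srxn1, with 0.07 on the second day and 1.09 on the first, and Txn1 is the only gene with the higher value on the second day.

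Among 18 relatives of thioredoxin and peroxiredoxin, 18 of 18 measured, 4 rose and 1 fell at 200 µM, where 22.9% of all genes passed, and none of them by 2-fold. The list's median difference was 0.03. Prdx6, a peroxiredoxin that uses glutathione, was picked after its value was seen and had the largest of these rises, 0.83 (SE 0.07, adjusted p = 7.7e-07). After LPS 8 of the list rose and 7 fell, where 34.5% of all genes rose and 44.4% fell, and 30.7% passed both limits. Glutaredoxin, Glrx (2.22, SE 0.12, adjusted p = 5.4e-10), and Prdx5 (1.59, SE 0.09, adjusted p = 4.9e-10), a peroxiredoxin found in several compartments, were over 2-fold higher after LPS. Txnip, an inhibitor of thioredoxin (-1.34, SE 0.06, adjusted p = 4.7e-11), and Txnrd2, the mitochondrial thioredoxin reductase (-1.29, SE 0.07, adjusted p = 1.5e-10), were over 2-fold lower. At 200 µM, Txnip gave -0.23 (adjusted p = 0.018) and Txnrd2 0.06 (adjusted p = 0.61).

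Of 6 measured reductases that take electrons from thioredoxin, Msra alone fell at 200 µM (-0.33, adjusted p = 0.0017; named after its value was seen), and the list's median difference was -0.11. After LPS 5 of the 6 fell, as did 44.4% of all genes, and 30.7% of all genes passed both limits in either direction. The ribonucleotide reductase subunits Rrm2 (-4.54, SE 0.22, adjusted p = 7e-11) and Rrm1 (-2.27, SE 0.22, adjusted p = 2.5e-07) and the methionine sulfoxide reductase Msrb2 (-1.50, SE 0.08, adjusted p = 2.5e-10) were over 2-fold lower after LPS. At 200 µM, Rrm2 gave -0.13 (adjusted p = 0.73).

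Among 15 quinone and carbonyl reductases, 6 rose and 2 fell at 200 µM (22.9% of all genes passed), with a median difference of 0.13. The 4 past 2-fold were all higher, against 3.03% of all genes past both limits in either direction and 2.05% as higher. They were Ptgr1, a reductase of leukotrienes and prostaglandins (1.96, SE 0.12, adjusted p = 3.3e-08), the aldo-keto reductase Akr1b8 (1.46, SE 0.06, adjusted p = 5.5e-10), the carbonyl reductase Cbr3 (1.25, SE 0.21, adjusted p = 4.7e-04) and Blvrb, which reduces biliverdin and flavins (1.14, SE 0.08, adjusted p = 6.9e-08). After LPS, 5 of the list rose and 10 fell, against 34.5% and 44.4% of all genes. Ptgr1 (-0.58, adjusted p = 4.6e-04), Akr1b8 (-0.49, adjusted p = 2e-06) and Cbr3 (-1.34, adjusted p = 2.8e-05) fell, as Nqo1 did, while Blvrb was higher by 0.53 (adjusted p = 1.2e-05). Nqo2, the paralog of Nqo1, gave -0.15 (adjusted p = 0.41) at 200 µM and -0.49 (adjusted p = 0.0013) after LPS.

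Of 18 measured genes among 21 relatives in the pentose phosphate pathway and NADPH supply, 5 rose and 1 fell at 200 µM (22.9% of all genes passed), with a median difference of 0.06. The single gene past 2-fold was Nadk, which makes NADP from NAD (1.03, SE 0.09, adjusted p = 3.4e-06), named after its value was seen. Over all genes 3.03% passed both limits at that dose. Of these genes 5 rose and 11 fell after LPS, where 78.9% of all genes passed the adjusted p and 30.7% passed both limits. Idh1, the cytosolic NADP-dependent isocitrate dehydrogenase (-1.81, SE 0.14, adjusted p = 1.8e-08), sedoheptulokinase Shpk (-1.70, SE 0.09, adjusted p = 2e-10) and Prps2, which makes phosphoribosyl pyrophosphate (-1.33, SE 0.07, adjusted p = 2.8e-10), were over 2-fold lower after LPS, and the mitochondrial folate enzyme Mthfd2 was over 2-fold higher (1.25, SE 0.11, adjusted p = 3.9e-08). Idh1 gave 0.32 (adjusted p = 0.12) at 200 µM.

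NADPH oxidase consumes NADPH to make superoxide in phagocytes. Of its 7 subunits, 2 rose and 2 fell at 200 µM, none by 2-fold, and 6 rose after LPS; over all genes 22.9% passed at 200 µM and 34.5% rose after LPS. Cybb, the catalytic subunit, was higher by 0.64 (SE 0.05, adjusted p = 3.3e-07) at 200 µM and by 1.34 (SE 0.05, adjusted p = 2.9e-12) after LPS. The small GTPase Rac2 gave 0.01 (adjusted p = 0.91) at 200 µM and rose by 1.30 (SE 0.07, adjusted p = 1.2e-10) after LPS.

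**Figure D5:**
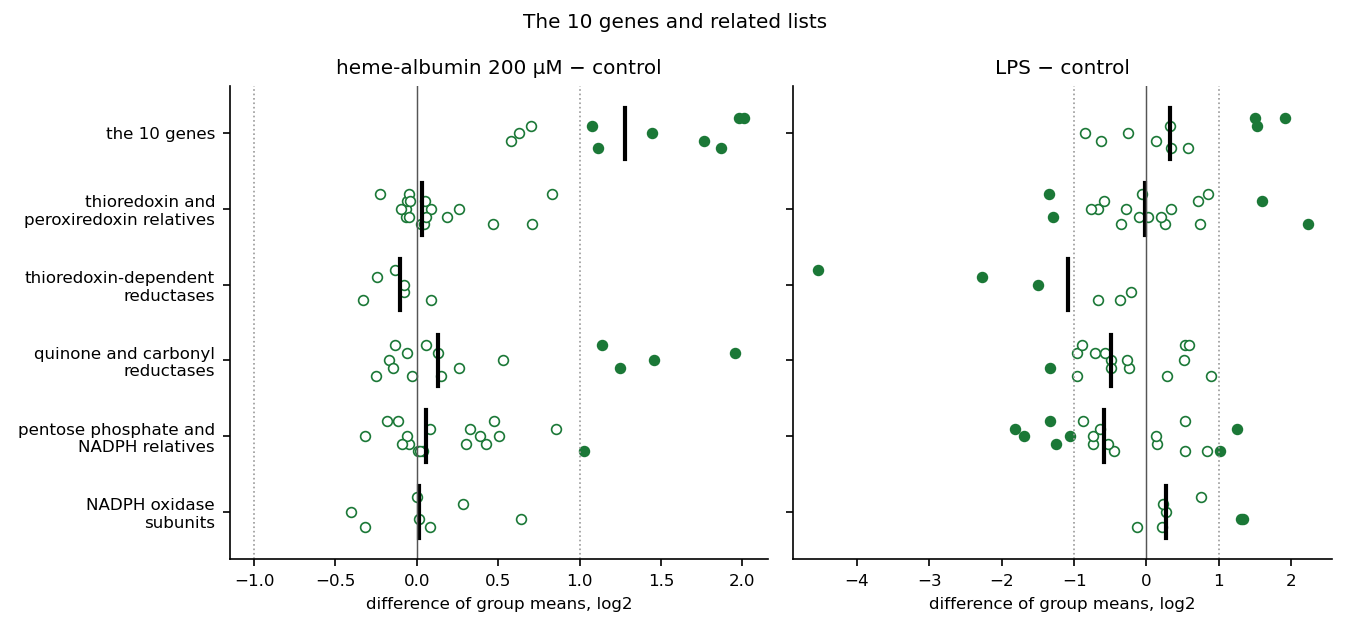
Difference from untreated control on the log2 scale for the 10 genes and 5 lists of related genes, after heme-albumin at 200 µM (left) and LPS (right); each point is a gene, filled points pass the adjusted p and 2-fold, bars are list medians and dotted lines mark 2-fold. On the left the median is 1.28 for the 10 genes and between -0.11 and 0.13 for the related lists, and on the right the points of most lists spread to both sides of 0.

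Genes with the pattern most like that of 5 of the 10 were taken from 12371 genes measured on all 16 arrays, by the Pearson correlation of log2 ratios. The points are arrays of 4 groups with shared slides, so group means set most of each coefficient. Nearest to Txnrd1 were Jag1 (0.971), Abcc5 (0.968) and Plpp3 (0.967). For Srxn1 they were Eprs (0.984), Rnf183 (0.974) and Prkar2b (0.971), and for Nqo1 Gstp2 (0.986), Gsta3 (0.98) and Dnajc10 (0.974). Me1 was closest to Gclm (0.984), Ear2 (0.976) and Lilra6 (0.972), and Tkt to Pir (0.989), Mgst2 (0.989) and Htatip2 (0.987).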

How the data were processed

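Messenger RNA was measured on 16 Agilent 4x44K arrays, 4 in each of 4 groups. Per the labels, Cy5 (red) is the sample and Cy3 (green) untreated reference RNA. Per the file headers, Agilent Feature Extraction (version 10.7.3.1) gave the deposited log10 ratios of red over green after background subtraction and a linear and lowess dye normalisation; they were turned to log2 here. Also deposited, per the file headers, is the intensity of each spot as median and processed signals. The values table of the series holds those same log10 ratios (largest difference 0). Per the labels, the authors fitted these ratios without further normalisation and filtered at 2-fold.

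Control spots and outlier spots (188 to 690 per array) were left out and spots of a probe averaged. Accessions matched to a mouse gene table (GRCm38.p6, another build than the array design) named 27234 of 39429 probes. The only coordinates given are those of the promoter stretches. Kept were 21352 probes whose red signal was well above background throughout at least 1 group, and the brightest stood for its gene (12732 genes; single probes were also fitted). Group means and their differences were estimated by lmFit and eBayes of limma 3.58.1 (R 4.3.3) with no block, using data.table version 1.17.8 to read files and Python 3.11.15 with matplotlib 3.10.9 to plot, and p-values adjusted by Benjamini-Hochberg over all genes in each of 6 comparisons. Called genes had an adjusted p under 0.05 and at least a 2-fold change. The code was tested on simulated data. The 4 arrays per group limit the precision.

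The 10 genes, the related lists and the promoter motifs were chosen with earlier results of these data known. Named were the 10 genes, up to 4 related genes per list past both limits against control with the largest change, and the 3 genes most like each of Txnrd1, Srxn1, Nqo1, Me1 and Tkt. Outside this rule, Prdx6, Msra, Nqo2, Nadk and the cell type markers were named after their values were seen.

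Replicate letters mark the slide and a tag in the sample titles, which held 1 array of each group. Same-lettered arrays deviated together in 5 of 6 comparisons (every correlation over 0.1, lowest 0.103), and between LPS and control at 0.0982 to 0.115; blocked values are given where they change a call. Alternatives were normexp (offset 50) and no background subtraction (both planned on mean and run on median signals, those used here), median centring, red signal alone, 2 filters, the mean over probes, 2 blocks, single scan days, an unmoderated linear model, and leaving out arrays.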

Additional observations from a re-analysis of the deposited data

Results flagged for a closer look

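In 34 groups of 4 arrays of the 10 genes, 1 array stood apart from the other 3: Me1 on replicate b at 200 µM, with a log2 ratio of 1.70 where the others read 1.85 to 1.88. Chance gives about 1 such array in 20 groups. Another 6 groups had a spot left out and were not tested.

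The LPS response differed between scan days for 4 of the 10 genes by the test of the treatment by scan day term, which 33.7% of all genes passed. The second day minus the first was -1.02 for Srxn1, -0.57 for Prdx1, -0.38 for Pgd and -0.35 for Txnrd1. For Prdx1 the first-day LPS value is replicate b alone. Txn1 gave 0.15 (adjusted p = 0.59) in the same test.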

How the results depend on the processing

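At 200 µM against control, 7 of the 10 genes were called in the reported fit and in every fit that left out an array or a replicate letter. On red signal alone 6 were called, without Pgd, and 6 of 8 measured with a filter of probes above background on all 16 arrays. Past the adjusted p alone were 8 of the 10 on red signal alone at 200 µM, and at 50 µM 2 on red signal alone and 10 with scan day as a block, against 7 in the reported fit. The 2 calls at 50 µM were less stable: 0 genes were called with normexp, on red signal alone and on the first scan day alone, 1 with no background subtraction and with the mean over probes, and 0 to 2 when an array or letter was left out (0 without replicate d at 50 µM or of all groups). Between the doses, red signal alone gave 1 called gene, Me1, without Srxn1 and Prdx1. Me1 was dim on replicate d at 50 µM. Against LPS, red signal alone gave 2 called genes at 200 µM (Nqo1 and Me1, without Srxn1 and Taldo1). At 50 µM it gave 1 (Nqo1, without Txn1 and Prdx1). On the first scan day alone Srxn1 at 200 µM against LPS was under 2-fold (0.73), and Txnrd1 did not pass the adjusted p (0.11). Directions turned for 3 differences that were small in the reported fit. Prdx1 between 200 µM and LPS was -0.0019 with centred arrays, -0.171 on red signal alone, -0.0493 on the first scan day, and -0.046 to 0.261 with arrays left out. Srxn1 between 50 µM and LPS was -0.0762 on red signal alone, -0.325 on the first scan day (adjusted p = 0.0057), 0.539 on the second (adjusted p = 6.6e-04) and -0.0801 to 0.281 with arrays left out. Me1 after LPS was -0.0336 on the second scan day. The cause was not tested. Across 708 gene results under changed processing, 647 kept their direction and side of the threshold, 33 lost it, 22 gained it and 6 reversed; of 720 with arrays left out the numbers were 675, 37, 1 and 7.

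Blocking on replicate changed the adjusted p of Taldo1 at 50 µM against control to 0.031, and between the doses that of Txn1 to 0.024 and that of Pgd to 0.092; it changed no other call of the 10 genes. Between the doses, Tkt kept its adjusted p under 0.05 in 3 of 12 fits with arrays left out, Pgd in 4 and Nqo1 in 6, and Txn1 at 50 µM against control in 5. Over all genes, normexp called 151 at 200 µM, 19 at 50 µM and 31 between the doses, against 386, 47 and 106 in the reported fit; no background subtraction gave 228, 28 and 70, and the filter on all 16 arrays 256 at 200 µM and 65 between the doses. The 4 arrays per group, a control at 0 h, and positions on the slide that follow the groups limit every comparison.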
